A study of Danio rerio with 10 samples.

Results

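The Sm proteins form the ring at the heart of the small nuclear ribonucleoproteins (snRNPs), the particles from which the spliceosome is built. The 8 genes described here are snrpb, snrpd1, snrpd2, snrpd3, snrpd3l, snrpe, snrpf and snrpg. They were chosen by name from the 32233 rows of a deposited expression table, and each name matched 1 row. These genes, and the related gene lists below, were chosen with earlier results of these data known. Comparing them with all rows is therefore not an independent test. RNA was sequenced, after removal of ribosomal RNA and with a stranded kit, from gata1-positive erythroid cells that were taken from zebrafish embryos 24 hours post fertilization. gata1 encodes a transcription factor of the red cell lineage. The cells came from embryos labelled sf3b1 mutant (5 libraries, numbered 1, 3, 4, 5 and 6) or from their siblings (5 libraries, numbered 2 to 6). The sf3b1 allele, the siblings' genotype beyond "wild type", the number of embryos pooled and the way gata1-positive cells were recognised are not stated in the labels. Nothing ties a library to its own clutch, so each p-value sets the difference between groups only against the scatter of these samples, and that scatter may be technical.

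In the cytoplasm the Sm proteins close around a short uridine-rich site of the U1, U2, U4 and U5 small nuclear RNAs, and of their minor spliceosome counterparts, to give a particle that is imported into the nucleus. They are built in as subcomplexes: SmD1 with SmD2, SmE with SmF and SmG, and SmB with SmD3. The SMN complex, named after the spinal muscular atrophy gene, loads them onto the RNA, after the chaperone pICln and the arginine methyltransferase PRMT5 have prepared them. sf3b1 encodes the largest subunit of SF3b, which sits in the U2 snRNP and holds the branch point of the intron. The comparison asks how the transcripts of the shared core of the snRNPs stand in red cell precursors in which a protein of the U2 snRNP is mutated.

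The values are FPKM, which divides fragments by the length of the transcript and the size of the library. Levels of different genes can therefore be compared only roughly, since paralogs and overlapping genes may share reads. Differences were tested with limma on log2(FPKM + 1) over the 13003 rows whose mean reached 1 FPKM, and all 8 Sm genes were among them. Library sums ran from 293816 FPKM in mutant 1 to 422870 in sibling 5. Depth is known only in relative terms, from the commonest ratio of low values between libraries, and ran from 0.578 times that of mutant 1 in mutant 3 to 1.26 times in sibling 6. sf3b1 itself was at 16 to 21.3 FPKM in mutants and 36.3 to 43.9 FPKM in siblings. The genotype tag of sibling 2 says mutant while its title says wild type; its sf3b1 level was 41.0 FPKM, and it was kept as a sibling. All 11 rows of an erythroid marker list were tested, among them gata1a at a mean of 53.05 FPKM in mutants and 70.7 FPKM in siblings. The summed level of that list was 2481 to 8748 FPKM in mutants and 4958 to 22312 FPKM in siblings. Most of it came from the globin rows hbae3 (means of 2804 FPKM in mutants and 6306 FPKM in siblings) and hbbe3 (2265 and 5488 FPKM). With limma 0 rows of the list rose or fell, and 6 were lower at an unadjusted p under 0.05. The share of all rows tested under that unadjusted p was not counted, so such counts, here and below, have no background. The part of the erythroid markers in the Sm values was not tested.

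Transcripts of 5 of the 8 Sm genes were higher in sf3b1 mutant erythroid cells: snrpd1, snrpd2, snrpd3, snrpd3l and snrpe. The other 3, snrpb, snrpf and snrpg, missed the threshold of an adjusted p of 0.05, and 0 fell. Each of the 5 was lower in every sibling library than in every mutant library. The ratio of group means ran from 2.10 for snrpd1 to 4.5 for snrpd3, and each log2 fold change was above 1. Over all rows tested 5.59% rose and 8.74% fell, 14.3% in all, and 1.78% rose at least 2-fold. Every mutant library was above every sibling library in 4.98% of rows, and 12.2% did not overlap in one direction or the other. Of the 1908 rows whose mean reached 20 FPKM, which include 4 of the 5 genes that rose, 9.28% rose. The median log2 fold change was 1.14 over the 8 Sm genes and -0.06 over all rows tested. The share of all rows that rose or fell depends on the scaling: 727 rose and 1137 fell as deposited, 919 and 972 after median of ratios scaling, and 987 and 1008 after quantile normalization. With each of these scalings the 5 Sm genes kept their calls. With sibling 2 counted as a mutant, 2 Sm genes, snrpd2 and snrpe, passed the threshold. In bulk samples fewer cells of a type and less RNA per cell cannot be told apart.

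**Figure D1:**
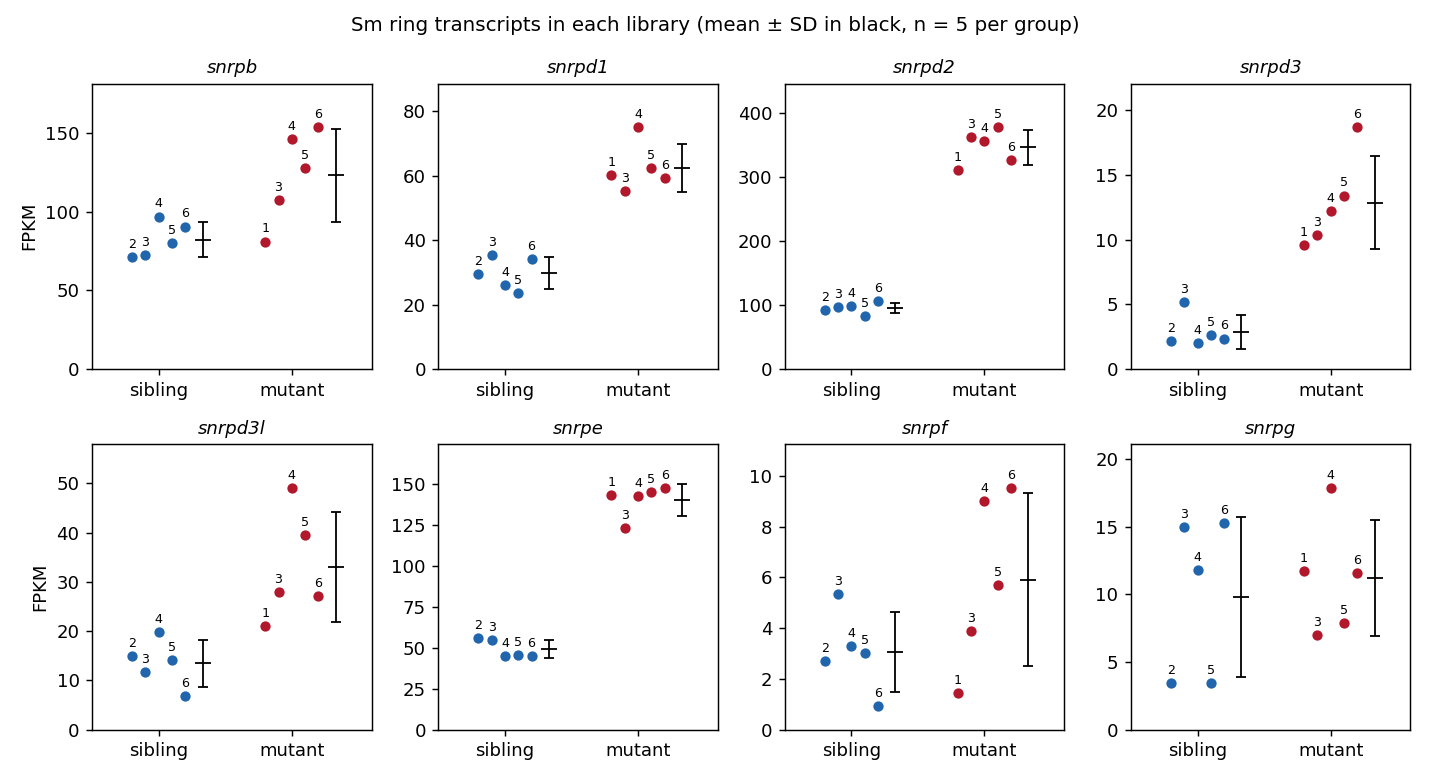
Level of each Sm gene in FPKM (vertical axis, linear and from 0, scaled per panel) in the 5 sibling libraries (blue) and the 5 mutant libraries (red), numbered as in the labels, with the mean ± SD in black. The groups are apart for snrpd1, snrpd2, snrpd3, snrpd3l and snrpe and overlap for snrpb, snrpf and snrpg.

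SmD1 and SmD2 enter the ring as a pair. snrpd2 (ENSDARG00000040440, GRCz10 chromosome 18, 40885681 to 40893895), which encodes SmD2, lay at 310.4, 362, 355, 378 and 327 FPKM in mutants 1, 3, 4, 5 and 6. In siblings 2 to 6 it lay at 92.1, 97.1, 97.8, 82.8 and 106 FPKM. The lowest mutant was thus far above the highest sibling, and the spread within either group was small, with a coefficient of variation of 7.91% in mutants and 8.93% in siblings. The means were 346 ± 27.4 FPKM (SD, n = 5) and 95.2 ± 8.5 FPKM (SD, n = 5), a log2 fold change of 1.85 (SE 0.13, limma adjusted p = 7.78e-06). The rise of snrpd2 ranked 59 of the 13003 rows, and it was the Sm gene with the smallest p.

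snrpd1 (ENSDARG00000011648, chromosome 19, 1922939 to 1927891), which encodes SmD1, lay at 60.3, 55.2, 75.1, 62.3 and 59.3 FPKM in the mutants. The siblings lay at 29.6, 35.4, 26.2, 23.7 and 34.1 FPKM. Mutant 4 was the highest library and sibling 5 the lowest, with no overlap between the groups. The means were 62.5 ± 7.54 FPKM and 29.8 ± 5.03 FPKM (SD, n = 5 each), and snrpd1 rose by 1.05 on the log2 scale (SE 0.15, limma adjusted p = 8.46e-04). Although the proteins pair, the transcripts of snrpd2 and snrpd1 differed in level in each library, with an FPKM ratio of 4.73 to 6.56 in mutants and 2.74 to 3.74 in siblings. The ranges of this ratio did not overlap; the difference between the rises of the pair was not tested.

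SmE, SmF and SmG form the trimer of the ring, and of their genes snrpe alone passed the test. snrpe (ENSDARG00000033175, chromosome 11, 37453347 to 37458996) lay at 143, 123, 143, 145 and 148 FPKM in mutants. In the siblings it lay at 56.1, 55.0, 44.8, 45.7 and 45.0 FPKM. It was the evenest Sm transcript within the mutants, with a coefficient of variation of 6.95%; mutant 3, the shallowest library, was the lowest of them. The means were 141 ± 9.77 FPKM and 49.3 ± 5.70 FPKM (SD, n = 5 each), a log2 fold change of 1.5 (SE 0.13, limma adjusted p = 3.33e-05).

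The partners of SmE had low levels that scattered between libraries. snrpf (ENSDARG00000105037, chromosome 7, 19122711 to 19126053) lay at 1.45, 3.87, 9.01, 5.70 and 9.52 FPKM in mutants and at 2.69, 5.36, 3.30, 3.0 and 0.917 FPKM in siblings. In 3 of the 5 mutants it was above every sibling, while mutant 1 was lower than 4 of the siblings. Its log2 fold change was 0.69 with a 95% interval of -0.20 to 1.57 (limma adjusted p = 0.294). That interval holds 0.

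snrpg (ENSDARG00000099667, chromosome 23, 34030819 to 34035458) lay at 11.8, 7.0, 17.9, 7.90 and 11.6 FPKM in mutants and at 3.47, 14.9, 11.8, 3.45 and 15.2 FPKM in siblings. The siblings held both the lowest and the second highest libraries of the series, and the ranges overlapped. Its log2 fold change was 0.34, with a 95% interval of -0.55 to 1.23 (limma adjusted p = 0.630), and was -0.15 with sibling 2 counted as a mutant.

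SmB and SmD3 form the remaining pair, and the table holds a second gene named for SmD3, snrpd3l. snrpd3 (ENSDARG00000013800, chromosome 8, 30733666 to 30736366) lay at 9.59, 10.3, 12.2, 13.4 and 18.7 FPKM in mutants. In siblings it lay at 2.15, 5.14, 2.02, 2.62 and 2.35 FPKM. Sibling 3 stood above the other siblings but below every mutant. The means were 12.9 ± 3.60 FPKM and 2.85 ± 1.30 FPKM (SD, n = 5 each), a log2 fold change of 1.86 (SE 0.23, limma adjusted p = 3.52e-04).

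snrpd3l (ENSDARG00000076283, chromosome 21, 13230539 to 13234042) lay at 21.1, 27.9, 49.1, 39.5 and 27.2 FPKM in mutants. Siblings had 15.0, 11.8, 19.8, 14.2 and 6.80 FPKM. The gap between the groups was narrow here, with mutant 1 at 21.1 just above sibling 4 at 19.8 FPKM. The means were 33.0 ± 11.2 FPKM and 13.5 ± 4.74 FPKM (SD, n = 5 each), a log2 fold change of 1.24 (SE 0.28, limma adjusted p = 0.0123). In every library snrpd3l had the higher level of the 2 SmD3 genes, by 1.46 to 4.01 times in mutants and 2.29 to 9.80 times in siblings. Their summed level was 45.8 ± 12 FPKM in mutants and 16.4 ± 4.54 FPKM in siblings (SD, n = 5 each). The sources used here do not say how counting shared reads between the 2 paralogs, so the split between them is uncertain.

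snrpb (ENSDARG00000011125, chromosome 6, 57481473 to 57488547), which encodes SmB, lay at 80.9, 107, 146, 128 and 154 FPKM in mutants. In siblings it lay at 71.1, 72.5, 96.8, 80.1 and 90.5 FPKM. In 4 of 5 mutants it was above every sibling, and mutant 1 lay inside the sibling range. The means were 123 ± 29.6 FPKM and 82.2 ± 11.2 FPKM (SD, n = 5 each), a log2 fold change of 0.55 (SE 0.19, 95% interval 0.14 to 0.96, limma adjusted p = 0.0698). Without mutant 1 snrpb passed the threshold (log2 fold change 0.69, adjusted p = 0.0147), as it did without both mutant 1 and sibling 2 (0.64, adjusted p = 0.0243). It passed likewise after quantile normalization (0.75, adjusted p = 0.0095), with an equal sum without globin, mitochondrial and ribosomal RNA rows (0.61, adjusted p = 0.0299), with array weights (0.59, adjusted p = 0.0268) and with the replicate number as a block, which drops mutant 1 and sibling 2 (0.64, adjusted p = 0.0143). Over all 22 alternatives its adjusted p ran from 0.0095 to 0.36.

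Two-sided exact permutation tests of each Sm gene's group means of log2(FPKM + 1), over 252 relabellings, gave p = 0.0079 for snrpd1, snrpd2, snrpd3, snrpd3l and snrpe, the smallest p that this design can give. The same exact permutation tests gave p = 0.0317 for snrpb, 0.183 for snrpf and 0.516 for snrpg; these 8 values are not adjusted for the number of genes.

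**Figure D2:**
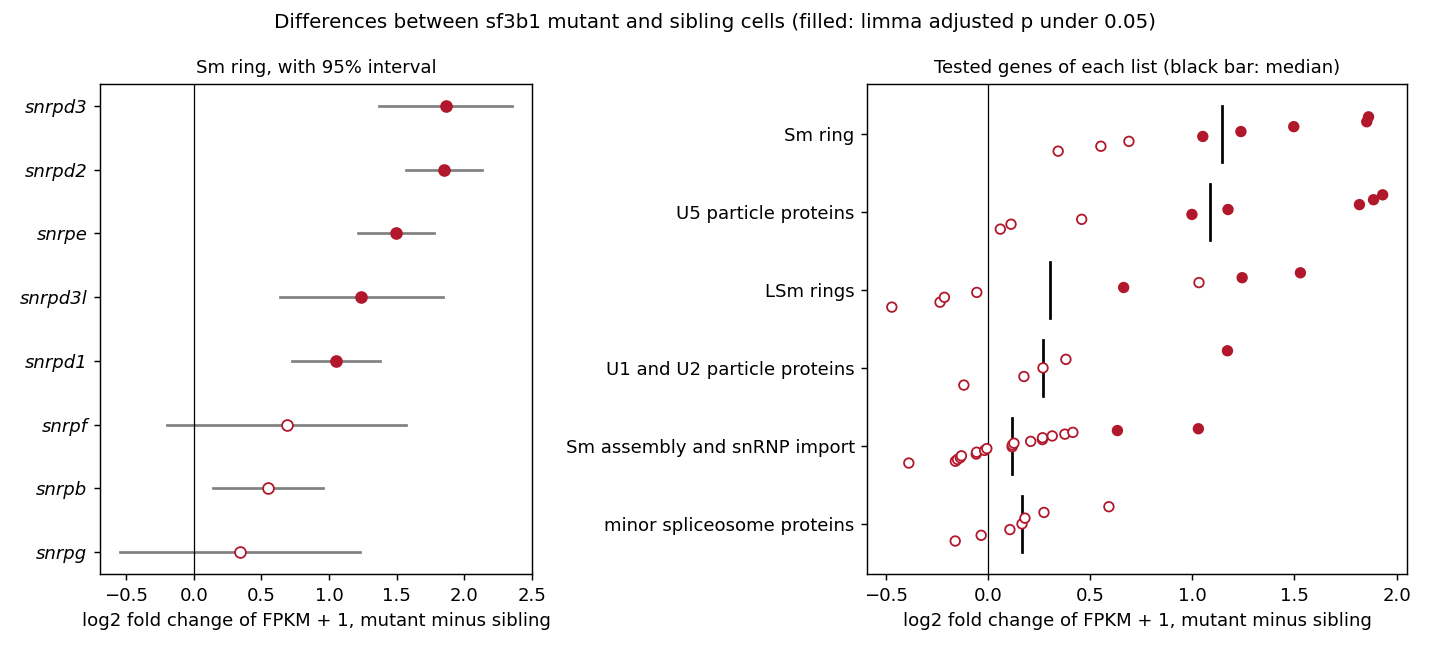
Log2 fold change of FPKM + 1, mutant minus sibling (horizontal axes), for the 8 Sm genes with 95% limma intervals (left) and for the tested genes of each related list with its median as a black bar (right); filled points have a limma adjusted p under 0.05. The Sm genes run from 0.34 to 1.86, and their median of 1.14 lies beside 1.09 for U5 proteins and 0.12 for the assembly factors.

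The order of the levels differed between the groups in the place of snrpb and of snrpd3. In siblings it was snrpd2, snrpb, snrpe, snrpd1, snrpd3l, snrpg, snrpf and snrpd3, from a mean of 95.2 down to 2.85 FPKM. In mutants it was snrpd2, snrpe, snrpb, snrpd1, snrpd3l, snrpd3, snrpg and snrpf, from 346 down to 5.91 FPKM. Neighbours whose ranges overlapped were snrpd2 and snrpb in siblings, although snrpd2 was the higher in all 5 libraries, and snrpe and snrpb in mutants. The ranges of snrpd3l, snrpg, snrpf and snrpd3 also overlapped from one to the next in siblings, as did those of snrpd3, snrpg and snrpf in mutants. Within libraries, snrpg was above snrpf in all 5 of either group. Among the 5 siblings snrpd3l was above snrpg in 3 and snrpf above snrpd3 in 4. Among the 5 mutants snrpe was above snrpb in 3 and snrpd3 above snrpg in 3. The highest and lowest transcripts in a library lay 4.24 to 7.74 apart on the log2 scale of FPKM. In siblings 2 to 5 the lowest was snrpd3, which shares its protein name with snrpd3l. The span of 7.74 was that of mutant 1, where snrpf was at 1.45 FPKM. The proteins stand in equal numbers in the ring, but these are RNA levels, and protein was not measured.

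The summed level of the 8 Sm transcripts was 735 ± 67.5 FPKM in mutants and 286 ± 20.8 FPKM in siblings (SD, n = 5 each). Mutants lay at 639 to 808 FPKM and siblings at 256 to 303 FPKM. snrpd2 made up 47.3 ± 3.58% of the sum in mutants and 33.3 ± 1.24% in siblings, and snrpb 16.6 ± 2.89% and 28.8 ± 3.36% (SD, n = 5 each). For both genes the ranges of the share did not overlap between groups. The share of snrpe was 19.2 ± 1.98% and 17.3 ± 2.47%, with overlapping ranges. Without snrpd2 the sum was 329 to 452 FPKM in mutants and 173 to 205 FPKM in siblings.

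**Figure D3:**
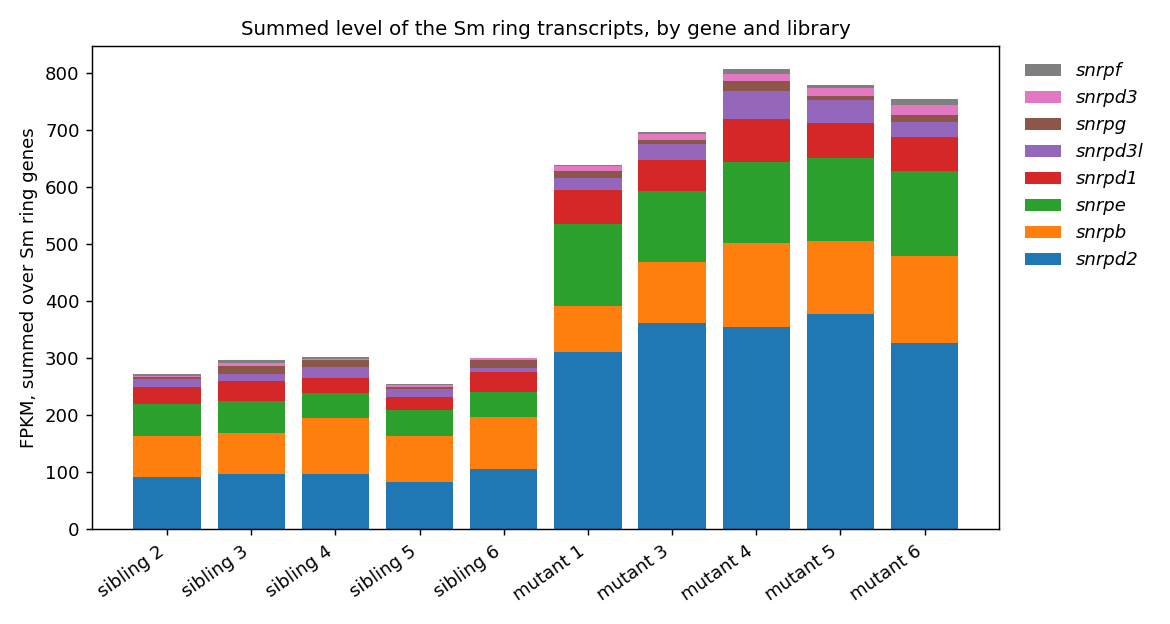
Summed FPKM of the 8 Sm transcripts in each library (vertical axis, linear and from 0), stacked by gene. The mutant bars stand at 639 to 808 FPKM and the sibling bars at 256 to 303 FPKM, with snrpd2 (blue, at the base) as the highest of the 8 genes in every library.

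Within a group the Sm genes did not all move with the same libraries. Among mutants, mutant 1 had the lowest level of snrpb, snrpd2, snrpd3, snrpd3l and snrpf, at 0.15 to 1.32 below the group mean on the log2(FPKM + 1) scale, while its snrpe and snrpg were 0.03 and 0.13 above the mean. Among siblings, sibling 6 was lowest for snrpd3l and snrpf and highest for snrpd2 and snrpg. snrpd2 and snrpe stayed within 0.19 of their group mean in all 10 libraries, and snrpg deviated by up to 1.05. Mutant 1 also had the highest summed level of 11 epidermal marker rows, at 1104 FPKM, and the lowest summed level of erythroid markers, at 2481 FPKM. The part of these in the low values of mutant 1 was not tested. Among siblings, sibling 2 had the highest epidermal sum, at 742 FPKM, and the lowest erythroid sum, at 4958 FPKM. The erythroid sums are made up mostly of the globin rows hbae3 and hbbe3. Of all 10 libraries, sibling 2 had the highest muscle sum, at 343 FPKM, and mutant 1 the highest neural sum, at 97.4 FPKM. Epidermal sums were 342 to 1104 FPKM in mutants and 308 to 742 FPKM in siblings, and with limma 0 of 10 tested epidermal rows rose or fell, with 2 higher at an unadjusted p under 0.05. Of neutrophil and macrophage markers 5 of 7 tested rows fell, and of muscle markers 2 of 6, beside 8.74% of all rows tested. Summed levels of the neutrophil and macrophage markers were 112 to 257 FPKM in mutants and 304 to 646 FPKM in siblings. With limma 0 of 6 neural and 0 of 6 endothelial rows rose or fell, and 0 had an unadjusted p under 0.05. No row of these lists was at 0 in all libraries. The neutrophil and macrophage sums thus did not overlap between the groups, with the mutants lower, and the part of these cells in the Sm values was not tested.

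**Figure D4:**
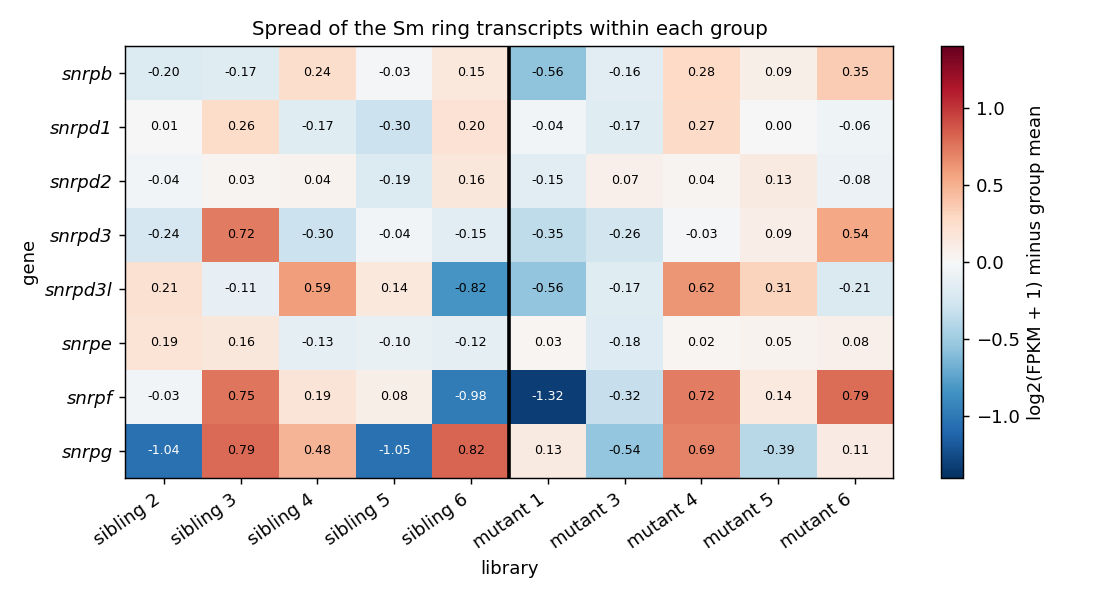
Deviation of each Sm gene (rows) from its group mean on the log2(FPKM + 1) scale in each library (columns; siblings left and mutants right of the black line), from blue (below) to red (above). snrpd2 and snrpe are the palest rows, and mutant 1 is the lowest mutant for snrpb, snrpd2, snrpd3, snrpd3l and snrpf.

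In the table, 2 of the 8 Sm loci share bases with another row. si:ch211-60j9.3, at chromosome 6, 57482387 to 57483853, lies inside snrpb, at 2.45 FPKM in mutants and 0.694 FPKM in siblings (limma adjusted p = 0.0117, log2 fold change 1.05). With a sibling mean below 1 FPKM, this row reached the mean needed for testing only through the mutants. Its call ended with the replicate block (limma adjusted p = 0.0723) and with sibling 2 counted as a mutant (0.127). snrpd3 lies inside the span of upb1, whose means were 1.1 FPKM in mutants and 1.03 FPKM in siblings, beside 12.9 and 2.85 FPKM for snrpd3. The kit marks strand, but the sources used here do not say that counting used it, so reads of overlapping genes cannot be told apart.

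The other proteins of the same particles went in part the same way. Of 8 U5 proteins 5 rose, or 62.5%, beside 5.59% of all rows tested, and 0 fell. Their median was 1.09 on the log2 scale, and with sibling 2 counted as a mutant 3 rose. Among those that rose were ddx23, a helicase, at 76.1 ± 7.44 against 20.8 ± 1.89 FPKM, snrnp200, the helicase that unwinds U4 from U6, eftud2, a GTPase, at 90.4 ± 16 against 23.5 ± 2.08 FPKM (SD, n = 5 each), and prpf8, the scaffold of the catalytic centre, which rose by 1.17 on the log2 scale (limma adjusted p = 2.29e-04). Of 5 listed proteins of the U1 and U2 particles 1 rose, or 20%, beside 5.59% of all rows tested, and 0 fell. It was snrpa1, which encodes the U2-A′ protein, at 11.9 ± 1.69 against 4.87 ± 1.74 FPKM (SD, n = 5 each, limma adjusted p = 0.0018). With sibling 2 counted as a mutant the limma adjusted p of snrpa1 was 0.0788. The list held snrnp70, snrpa, snrpc, snrpa1 and snrpb2 and left out the SF3b subunits. sf3b1, which is outside the list but of the U2 particle, fell (log2 fold change -1.05, limma adjusted p = 3.26e-04). Among minor spliceosome proteins 0 of 7 tested rose or fell with limma, and 1 was higher at an unadjusted p under 0.05: snrnp48, of the U11/U12 particle, at 7.39 against 4.64 FPKM (adjusted p = 0.0751), and passed under 5 of the 22 alternatives.

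LSm proteins, which form Sm-like rings on U6 and in messenger RNA decay, were split. Of 10 listed genes, which matched 11 rows, 8 rows could be tested. Of these 3 rose, or 37.5%, beside 5.59% of all rows tested, and 0 fell, with a median log2 fold change of 0.30. lsm7, a member of both rings, lay at 25.5 ± 6.70 FPKM in mutants and 8.12 ± 1.95 FPKM in siblings (SD, n = 5 each, limma adjusted p = 6.41e-04). lsm8, which marks the nuclear ring on U6, lay at 13.3 ± 7.44 against 4.62 ± 1.41 FPKM (adjusted p = 0.0229) and lsm4, also of both rings, at 22.8 ± 5.82 against 13.7 ± 1.42 FPKM (adjusted p = 0.0289). lsm8 lost its call with no filter (adjusted p = 0.0543), on leaving out sibling 5 (0.0578) and on leaving out mutant 1 together with sibling 2 (0.0572), and lsm4 without mutant 4, 5 or 6 or sibling 4 or 6 (0.0582 to 0.0671); with sibling 2 counted as a mutant 0 rows of this list were called (lsm8 0.127, lsm4 0.146). lsm6 was at 6.05 and 2.73 FPKM (adjusted p = 0.0509), and lsm10, of the U7 ring of histone RNA processing, was listed at 0 in all 10 libraries.

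Of 20 tested rows of genes that build and import the Sm core 2 rose, or 10%, beside 5.59% of all rows tested, and 0 fell, with a median log2 fold change of 0.12. snupn, snurportin, the import adaptor that binds the trimethylated cap of assembled snRNPs, was at 22.9 ± 3.98 FPKM in mutants and 10.7 ± 1.49 FPKM in siblings (SD, n = 5 each, log2 fold change 1.03, limma adjusted p = 0.0011; 0.0961 with sibling 2 counted as a mutant). smn1 was at 11.9 ± 3.33 against 7.18 ± 1.32 FPKM (adjusted p = 0.0468), and 8 of the 10 alternatives that leave out 1 library ended that call: the adjusted p was 0.0682 to 0.102 without any library other than mutant 1 or sibling 2. With no filter, without the variance trend and with sibling 2 counted as a mutant the adjusted p of smn1 was 0.081, 0.054 and 0.0912. coil, coilin of the Cajal body, was at 9.60 and 7.24 FPKM (adjusted p = 0.101), and strap, a partner of the SMN complex, at 22.5 and 16.6 FPKM (adjusted p = 0.125). prmt5 was at 15.5 ± 3.19 and 14.2 ± 2.75 FPKM, a log2 fold change of 0.12, and clns1a, which encodes pICln, at 11 ± 2.86 and 11.4 ± 2.46 FPKM (SD, n = 5 each), a log2 fold change of -0.06; the adjusted p were 0.703 and 0.878.

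Of the RNAs that carry an Sm ring or, for U7, an Sm-like ring, 579 rows have the names U1, U2, U4, U5, U7, U11, U12 or U4atac. Of them 49 could be tested. With limma 3 of the 49 rose, or 6.12%, beside 5.59% of all rows tested, and 0 fell. The 3 rows are named U4, of 4 tested; the difference between U4 and the other names was not tested. Of the 49 rows 37 had a log2 fold change above 0, with a median of 0.83. Over all rows tested these were 5791 of 13003 and -0.06. Some of the 49 rows were at 0 in every sibling, such as a U5 row at a mean of 10.3 FPKM in mutants. Such rows reached the mean needed for testing only through the mutants, so their sign was fixed by the filter. Fewer rows were at 0 in every mutant, such as a U1 row at 6.12 FPKM in siblings. The 37 rows and the median of 0.83 include both kinds, so they are not a like comparison with all rows. Median log2 fold changes were 0.77 for U1, 0.46 for U2 and 0.59 for U5, with 0 called. U12 (1 row) had a log2 fold change of 2.09 and 2 rows named U11 had a median of 1.26, with 0 called. Of the U11 rows, the one at 1.69 had means of 336 FPKM in mutants and 90.0 FPKM in siblings, with overlapping ranges. The other, at 0.83, was at 0 in 9 of the 10 libraries and could be tested only through a mutant at 16.9 FPKM. Many of these rows are listed at 0 in several libraries, and rows of 1 name may share reads, so their values are uncertain.

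Outside the list, the 6 rows, of those with a mean of 5 FPKM or more, whose values over the 10 libraries were most like the mean of the standardised Sm values were coa7, isg20, gpd1b, c1d, ccng1 and timm8a, among 6146 rows compared. Pearson correlations ran from 0.989 for coa7, known in human as a cytochrome c oxidase assembly factor, to 0.967 for timm8a, a chaperone of mitochondrial import. The points of these correlations are the same 10 libraries in 2 groups, so they carry the difference between groups as well as library depth. coa7 was at 9.04 FPKM in mutants and 3.12 FPKM in siblings, and c1d, known in human as a cofactor of the nuclear exosome, at 30.3 and 15.5 FPKM. With a sibling mean below 5 FPKM, coa7 reached the mean needed for this comparison only through the mutants.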

How the data were processed

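The authors deposited FPKM values in 1 table, with a column for each library, per the file headers. The submitters' processing notes name the GRCz10 build and, as tools, Cufflinks 2.2.1, STAR 2.4.2a, Picard and Trim Galore. The table has 32233 rows and holds no counts, so absolute depth is unknown. Printed starts are 1-based.

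The members and gene lists were chosen with earlier results of these data known. Of 110 listed symbols 105 were found as written, 3 through the current name of their ID, and 2 were not found. limma 3.58.1 (R 4.3.3; lmFit, eBayes with a mean-variance trend) was run on log2(FPKM + 1) for the 13003 rows whose mean reached 1 FPKM, with Benjamini-Hochberg adjustment over them all. This scale understates the fold change of low genes. Each SD is of FPKM. Named genes were all 8 members, up to 4 genes with the smallest p in each list, smn1, prmt5, clns1a, sf3b1 and the 6 nearest patterns; gata1a, lsm10 and the overlapping rows were named outside that rule, after their values were seen. Alternatives were 2 other pseudocounts, 2 other filters, 3 scalings, 2 variance models, sibling 2 as a mutant, the replicate block, each library left out and mutant 1 with sibling 2 left out. limma was also tested on simulated data with 50 rows changed at each fold. It recovered 4% of 1.5-fold, 54% of 2-fold, 82% of 3-fold and 92% of 4-fold changes, so small changes can be missed. Far fewer rows were changed there than were called in the data, so these rates need not hold here. Tables and plots were made in Python 3.11.15 (numpy 2.4.6, pandas 2.3.3, matplotlib 3.10.9).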

Additional observations from a re-analysis of the deposited data

Results flagged for a closer look

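In 2 of 16 groups of 5 libraries (8 Sm genes in 2 groups) 1 library stood apart from the others by Dixon's criterion, whose chance rate is about 1 in 20 groups. For snrpd3, sibling 3 was at 5.14 FPKM while the other siblings lay at 2.02 to 2.62 FPKM, a gap of 0.806 of the group's range. Without sibling 3 snrpd3 kept its call. For snrpe, mutant 3 was at 123 FPKM while the other mutants lay at 143 to 148 FPKM, a gap of 0.785 of the range. Mutant 3 remained above every sibling for snrpe, and its relative depth, 0.578 times that of mutant 1, was the lowest of the 10 libraries. The part of depth in this value was not tested.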

How the results depend on the processing

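Over 22 alternatives the number of Sm genes called higher was 5 in 15, 6 in 6 and 2 in 1, and 0 were called lower in any. snrpd2 and snrpe kept their calls in all 22. snrpf could not be tested with a mean of at least 5 FPKM. snrpd1, snrpd3 and snrpd3l kept theirs in 21, and with sibling 2 counted as a mutant had adjusted p of 0.0501, 0.0637 and 0.0672. Under that setting 2 Sm genes and 300 rows over the whole table were called higher and 461 lower, and snrpg turned to -0.15. With a mean of at least 5 FPKM 755 rows were called lower, with fewer rows tested. Leaving out 1 library gave 5 to 6 Sm genes and 524 to 735 rows called higher and 741 (without sibling 4) to 1238 called lower. The cause of these changes was not tested. clns1a, not called anywhere, changed sign with median of ratios scaling (0.0105), array weights (0.0022), the replicate block and without both mutant 1 and sibling 2 (0.0562 each), and ranged from -0.1889 to 0.0348 with 1 library left out. With so few libraries it cannot be told whether the numbers pair them. Deviations of same-numbered libraries 3, 4, 5 and 6 had correlations of -0.023, 0.019, 0.099 and 0.138 across rows. Only mutants 5 and 6 correlated best with their own number. The replicate block called 725 rows higher, 1219 lower and 6 Sm genes higher. The intervals of snrpf (-0.20 to 1.57) and snrpg (-0.55 to 1.23) are the widest of the 8 genes on the log2 scale.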
